A study of Mus musculus with 6 samples.

Results

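Transcripts of 10 Polycomb group genes were measured in mouse oocytes, in 3 control libraries and 3 libraries of mice treated with anti-Müllerian hormone (AMH), which granulosa cells of growing follicles secrete. The genes were taken by symbol from the count and FPKM tables as subunits of the Polycomb repressive complexes: Ezh1, Ezh2, Eed, Suz12 and Jarid2 of PRC2 and Rnf2, Ring1, Bmi1, Pcgf6 and Cbx2 of PRC1. They are 10 of 54532 genes in the tables, and all 10 were among the 18868 genes that passed the filter on low counts. Per the labels, the mice were C57BL/6J, aged 6 to 7 weeks in every sample, and AMH mice received 300 ng of recombinant mouse AMH made in bacteria, injected into the abdominal cavity each day from 21 days of age. The sources used here do not say whether control mice were injected, whether cumulus cells were removed or how many oocytes and mice went into a library, so p-values measure the spread between libraries, which may be technical. In such bulk libraries, fewer cells of a type and less RNA per cell cannot be told apart.

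Polycomb complexes keep genes silent by marking histones. PRC2 methylates lysine 27 of histone H3 through its catalytic subunit EZH1 or EZH2, held active by EED and SUZ12, and PRC1 ubiquitinates histone H2A through RING1 or RNF2 (also called RING1B), paired with a PCGF protein. In oocytes PRC1 and PRC2 are known to build the maternal chromatin state passed to the embryo, which includes imprints that rest on histone H3 methylation rather than on DNA methylation.

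Under TMM scaling, 9 of the 10 genes had lower mean levels in AMH libraries and Ring1 had a higher one, but none passed the test. The direction depended on the scaling. When scaled to the oocyte markers, 8 members had positive fitted log2 fold changes and 2 negative ones. At an adjusted p under 0.05 the quasi-likelihood test of edgeR called 0 members, as it called 0% of all tested genes. At an unadjusted p under 0.05 there were 8 members lower and 1 higher, against 17.3% of all tested genes lower and 20.2% higher. DESeq2 also called 0 members, while it called 4.86% of all its tested genes lower and 14.4% higher. limma-voom and limma on log2(FPKM + 1) called 0 members and 0% of all tested genes. limma-voom with sample quality weights called all 10, with 9 lower and 1 higher, in a fit that called 35.8% of all tested genes lower and 39.1% higher. In 8 members every AMH library lay below every control, as in 23.3% of all tested genes, and in Ring1 every AMH library lay above every control, as in 26.9%.

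Library depth was 66392859 to 72109080 counts. Control 3 and AMH 3 stood closest together of all pairs of libraries, across the groups, with a chi-square of 55.9 per degree of freedom, and the next 2 pairs lay within a group. Summed oocyte marker CPM (counts per 1000000 of the TMM-scaled library size) was 31741 to 40078 in controls and 18338 to 31021 in AMH libraries, with 14 of 19 tested markers lower in every AMH library. Cumulus and granulosa markers together reached 490.0 CPM in control 1, 285 in control 2 and 2805 in control 3, against 2428 to 2744 CPM in AMH libraries, with 6 of 18 markers higher in every AMH library and 1, Cyp19a1, lower. Oviduct epithelium markers summed to 19.3 to 107.5 CPM in controls and 101 to 547 CPM in AMH libraries, with 4 of 6 higher in every AMH library. Macrophage markers summed to 4.74 to 20.3 against 48.3 to 75.8 CPM, with 4 of 6 higher, and red blood cell markers to 0.826 to 5.51 against 20.1 to 307 CPM, with 2 of 3 higher. Endothelial markers summed to 162 to 202 against 98.0 to 157 CPM, with 1 of 3 higher (Cdh5) and 2 lower (Pecam1 and Kdr). Most of this sum was Pecam1 alone (145 to 187 against 87.5 to 143 CPM), and Cdh5 was below 3 CPM everywhere. For comparison, every AMH library lay below every control in 23.3% of all tested genes and above every control in 26.9%. These shares went with level, split at a 6-library average of 50 CPM, a cut chosen after values were seen. Above the cut 49.9% of tested genes lay lower and 12.5% higher, and below it 16.5% and 30.6%. No marker was at 0 in all 6 libraries. The part of these cell types in the results below was not tested.

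The sequences before the start sites of 3 members are shown. Rnf2 and Ring1 were taken as the catalytic pair whose group differences had opposite signs under TMM scaling. Suz12 was taken as the only member with an E2F match. RefSeq entries on GRCm38.p6 were found for 9 of 10 members, all but Cbx2. Capitals mark matches, on either strand, to the GC box GGGCGG, the CCAAT box, the E2F motif in its forms TTTCCCGC, TTTGGCGC, TTTCGCGC and TTTGCCGC, the NRF1 core (GCGC, then any base, then TGCGC) or the TATA box TATAAA. Each run is the 250 bases before the RefSeq start, 5′ to 3′ on the gene's strand, from chr1:151500992-151501241 (minus strand) for Rnf2, chr17:34024681-34024930 (minus strand) for Ring1 and chr11:79992856-79993105 (plus strand) for Suz12.
Rnf2: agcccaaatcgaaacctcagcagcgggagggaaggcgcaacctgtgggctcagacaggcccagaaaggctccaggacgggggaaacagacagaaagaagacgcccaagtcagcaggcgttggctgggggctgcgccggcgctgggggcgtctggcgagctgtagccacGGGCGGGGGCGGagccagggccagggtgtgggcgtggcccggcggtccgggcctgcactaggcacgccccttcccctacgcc
Ring1: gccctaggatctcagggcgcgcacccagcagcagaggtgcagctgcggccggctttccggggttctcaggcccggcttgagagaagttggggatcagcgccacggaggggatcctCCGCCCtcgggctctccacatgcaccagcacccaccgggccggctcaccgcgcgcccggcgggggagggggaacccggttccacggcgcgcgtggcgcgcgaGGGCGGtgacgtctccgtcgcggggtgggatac
Suz12: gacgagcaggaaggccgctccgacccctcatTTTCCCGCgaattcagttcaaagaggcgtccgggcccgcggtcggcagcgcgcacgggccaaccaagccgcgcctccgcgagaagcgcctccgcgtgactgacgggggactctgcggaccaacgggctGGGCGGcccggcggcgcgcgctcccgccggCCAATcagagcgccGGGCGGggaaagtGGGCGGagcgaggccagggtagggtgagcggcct
These windows held 20, 30 and 37 CpG dinucleotides, against a median of 6 over 32851 RefSeq windows of the same length. Rnf2 had GC boxes that began 82 and 76 bases before the start, and Ring1 had them at 135 and 33 bases. Suz12 had the E2F letters at 219 bases and a CCAAT box at 61 bases. A GC box was in 6 of the 9 members and in 32.7% of all windows, CCAAT in 3 and in 33.85%, the NRF1 core in 3 and in 3.74%, the E2F letters in 1 and in 1.86%, and TATAAA in 1 and in 12.4%. A match is only a match of letters.

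Levels per gene length are compared on the deposited FPKM, which takes gene length and depth into account. Bmi1, a PCGF subunit of canonical PRC1, was highest with 135.8 ± 12.2 FPKM in controls (SD, n = 3), followed by Cbx2, the chromodomain subunit that reads methylated histone H3, with 120.5 ± 19.5, and Pcgf6, the PCGF subunit of a variant PRC1, with 113 ± 12.9. Ezh2 had 63.7 ± 4.52, Rnf2 61.0 ± 1.84 and Eed 54.3 ± 4.29 FPKM. Suz12 had 33.4 ± 9.82, Jarid2 33.3 ± 4.23 and Ezh1 27.1 ± 0.353 FPKM, and Ring1 was last with 0.719 ± 0.533 FPKM. In control libraries the ranges of neighbours overlapped from Bmi1 to Pcgf6, from Ezh2 to Eed and between Suz12 and Jarid2. They did not overlap between Pcgf6 and Ezh2, Eed and Suz12, Jarid2 and Ezh1, or Ezh1 and Ring1. By mean FPKM, 9 members ranked between the 89.6th and the 98.1th percentile of tested genes, and Ring1 at the 44.1th.

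**Figure D1:**
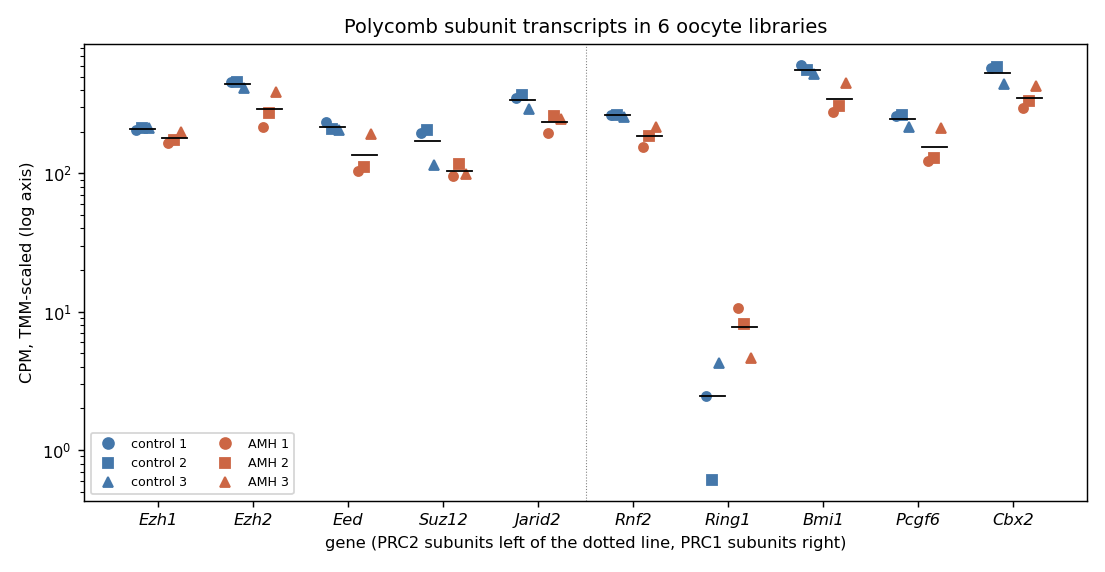
TMM-scaled CPM of each Polycomb subunit on a log axis, with 1 point per library (blue control, orange AMH; circle, square and triangle for replicates 1, 2 and 3) and a black bar at each group mean. Of the 10 genes, 9 lie between 95.4 and 609.9 CPM with AMH means below control means, and Ring1 lies between 0.608 and 10.6 CPM with its AMH mean above.

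Among the catalytic subunits of PRC2, Ezh2 differed more between groups than Ezh1 under TMM scaling. When scaled to the oocyte markers, Ezh1 had the larger log2 fold change, 0.50 (SE 0.19) against 0.072 (SE 0.13) for Ezh2. The edgeR adjusted p-values were then 0.119 and 0.759. Ezh2 (chromosome 6, 47530139 to 47595341) had 459, 459 and 413 CPM in controls 1 to 3 and 216, 273 and 384 CPM in AMH 1 to 3. The AMH libraries lay below the controls, with AMH 3 close to control 3. The fitted log2 fold change was -0.61 (SE 0.23, edgeR adjusted p = 0.121). Ezh1 (chromosome 11, 101191115 to 101226463), the catalytic subunit typical of non-dividing cells, had 206, 213 and 212 CPM in controls and 167, 174 and 198 CPM in AMH libraries. The groups did not overlap, but the log2 fold change was -0.23 (SE 0.14, edgeR adjusted p = 0.245). Before any scaling, Ezh1 had 12971 to 13972 counts in the 6 libraries, and Ezh2 27258 to 29619 counts in controls and 17501 to 25194 in AMH libraries.

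The ratio of Ezh2 to Ezh1 within a library does not depend on the scaling between libraries. By FPKM it was 2.48, 2.40 and 2.17 in controls 1 to 3 and 1.44, 1.74 and 2.16 in AMH 1 to 3. Every AMH library had a lower ratio than every control, by a small margin in AMH 3. The mean log2 ratio was 1.23 ± 0.10 in control and 0.81 ± 0.29 in AMH libraries (SD, n = 3 each), with a difference of -0.42 and a two-sided exact permutation p of 0.1, the smallest that 3 against 3 libraries allow (0.2 adjusted over the 4 ratios tested).

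The core partners of EZH2 had lower means in AMH libraries too under TMM scaling. Eed (chromosome 7, 89954654 to 89980983), which binds methylated histone H3 and stimulates the enzyme, had 234, 210.5 and 206 CPM in controls and 104, 111 and 192 CPM in AMH libraries. The AMH libraries were below the controls, with AMH 3 well above the other two. Its log2 fold change was -0.67 (SE 0.26, edgeR adjusted p = 0.121). Suz12 (chromosome 11, 79993106 to 80034123), the scaffold of PRC2, had 196, 204 and 115 CPM in controls and 95.4, 117 and 98.2 CPM in AMH libraries. It was the only member whose groups overlapped, since control 3 lay below AMH 2. Its log2 fold change was -0.73 (SE 0.25, edgeR adjusted p = 0.116).

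The ratio of Eed to Suz12 was highest in control 3 and AMH 3. By FPKM it was 2.31 in control 3 and 2.53 in AMH 3. It was lower in the other libraries, at 1.54 in control 1, 1.33 in control 2, 1.41 in AMH 1 and 1.23 in AMH 2. Between the groups the mean log2 ratio was 0.75 ± 0.41 and 0.71 ± 0.55 (SD, n = 3 each; exact permutation p = 1, two-sided), and the sign of its difference turned without control 3 (0.19), AMH 1 (0.069) or AMH 2 (0.17). Jarid2 (chromosome 13, 44729474 to 44921643), an accessory subunit that helps PRC2 onto chromatin, had 348, 371 and 293 CPM in controls and 195, 259.8 and 246 CPM in AMH libraries. All AMH libraries lay below all controls (log2 fold change -0.53, SE 0.18, edgeR adjusted p = 0.117).

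**Figure D2:**
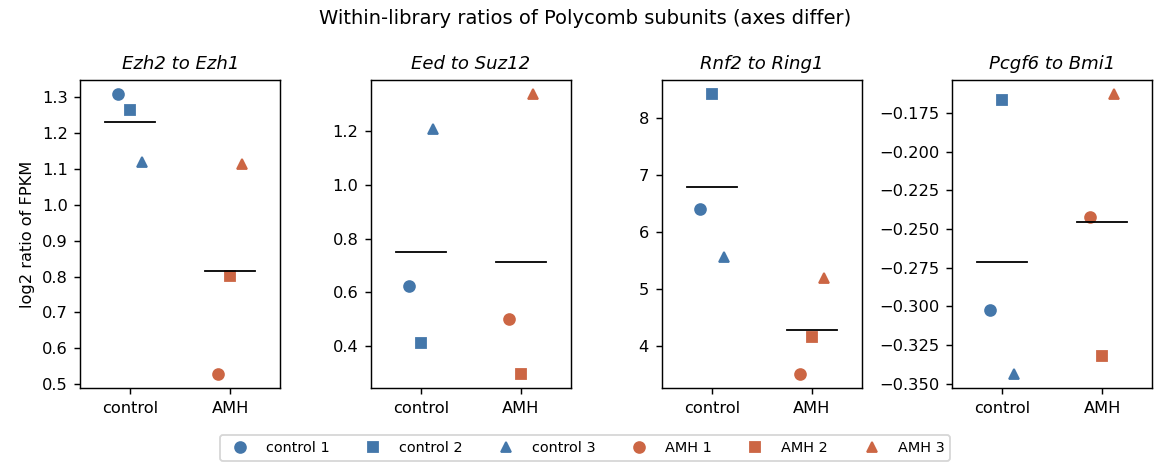
Log2 ratio of FPKM within each library for 4 pairs of subunits, with 1 point per library and a black bar at the group mean; the vertical axes differ. The groups do not overlap for Ezh2 to Ezh1 or Rnf2 to Ring1, and they overlap for Eed to Suz12, where control 3 and AMH 3 (triangles) lie highest, and for Pcgf6 to Bmi1.

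The group differences of the catalytic pair of PRC1 had opposite signs under TMM scaling, neither past the test. Rnf2 (chromosome 1, 151458004 to 151500955), the main ubiquitin ligase, had 265, 266 and 257 CPM in controls and 155, 186 and 216 CPM in AMH libraries. The controls lay close together, and every AMH library was below them (log2 fold change -0.50, SE 0.17, edgeR adjusted p = 0.116). Ring1 (chromosome 17, 34020792 to 34024680), its paralog, had 2.45, 0.608 and 4.28 CPM in controls and 10.6, 8.15 and 4.64 CPM in AMH libraries. It was below 11 CPM everywhere, and control 3 and AMH 3 nearly met. These values rest on 158, 39 and 282 counts in controls and 864, 623 and 304 counts in AMH libraries. The log2 fold change of Ring1 was 1.68 (SE 0.69, edgeR adjusted p = 0.132).

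By FPKM there were 85.1, 344 and 47.3 times more Rnf2 than Ring1 transcripts in controls 1 to 3 and 11.4, 17.9 and 36.6 times more in AMH 1 to 3. Rnf2 thus predominated in all 6 libraries. The mean log2 ratio was 6.80 ± 1.47 in control and 4.29 ± 0.85 in AMH libraries (SD, n = 3 each), a difference of -2.51 (two-sided exact permutation p = 0.1, 0.2 adjusted over the 4 ratios), and -1.70 without control 2. Ring1 made up 0.290% to 2.07% of the summed Rnf2 and Ring1 FPKM in controls and 2.66% to 8.05% in AMH libraries. Control 2, with the least Ring1, also had the lowest summed cumulus (285), oviduct epithelium (19.3), macrophage (4.74) and red blood cell (0.826) marker CPM. AMH 1, with the most Ring1, had the highest oviduct epithelium (547) and red blood cell (307) sums. Endothelial marker CPM went the other way, highest in control 2 (202) and lowest in AMH 1 (98.0). AMH 1 had the lowest macrophage sum of the AMH libraries, though (48.3 CPM), and control 3 had the highest cumulus sum of all (2805 CPM) with 4.28 CPM of Ring1. The part of these cells in the Ring1 values was not tested.

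The PCGF subunits Bmi1 and Pcgf6 both had lower means in AMH libraries under TMM scaling. Bmi1 (chromosome 2, 18677018 to 18686629) had 609.9, 557 and 522 CPM in controls and 277, 309 and 450.1 CPM in AMH libraries, with the highest AMH library below the lowest control. Its log2 fold change was -0.70 (SE 0.22, edgeR adjusted p = 0.116). Pcgf6 (chromosome 19, 47033619 to 47050845) had 261, 262 and 217 CPM in controls and 124, 129.7 and 212 CPM in AMH libraries. AMH 3 came within a few CPM of control 3 (log2 fold change -0.67, SE 0.24, edgeR adjusted p = 0.118). The ratio of Pcgf6 to Bmi1 was 0.811, 0.891 and 0.788 in controls and 0.846, 0.794 and 0.893 in AMH libraries, so the groups overlapped fully. The mean log2 ratio differed by 0.025 (two-sided exact permutation p = 0.7), with a sign that turned without control 3 (-0.011) or AMH 3 (-0.016).

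Cbx2 (chromosome 11, 119022962 to 119031270) had 574, 590.2 and 441 CPM in controls and 299, 331 and 429 CPM in AMH libraries. AMH 1 and 2 were far below the controls and AMH 3 was just below control 3 (log2 fold change -0.60, SE 0.21, edgeR adjusted p = 0.118).

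The shares of the 6 PCGF genes in their summed FPKM were chosen for description after values were seen. Pcgf1, of the variant PRC1 with KDM2B, held 46.5% ± 2.87 in control and 47.1% ± 0.803 in AMH libraries (SD, n = 3 each). Bmi1 held 28.9% ± 2.25 and 27.8% ± 0.857, and Pcgf6 23.9% ± 0.430 and 23.4% ± 0.980. Pcgf2, the close paralog of Bmi1, held 0.00836% to 0.0618% in controls and 0.124% to 0.243% in AMH libraries.

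**Figure D3:**
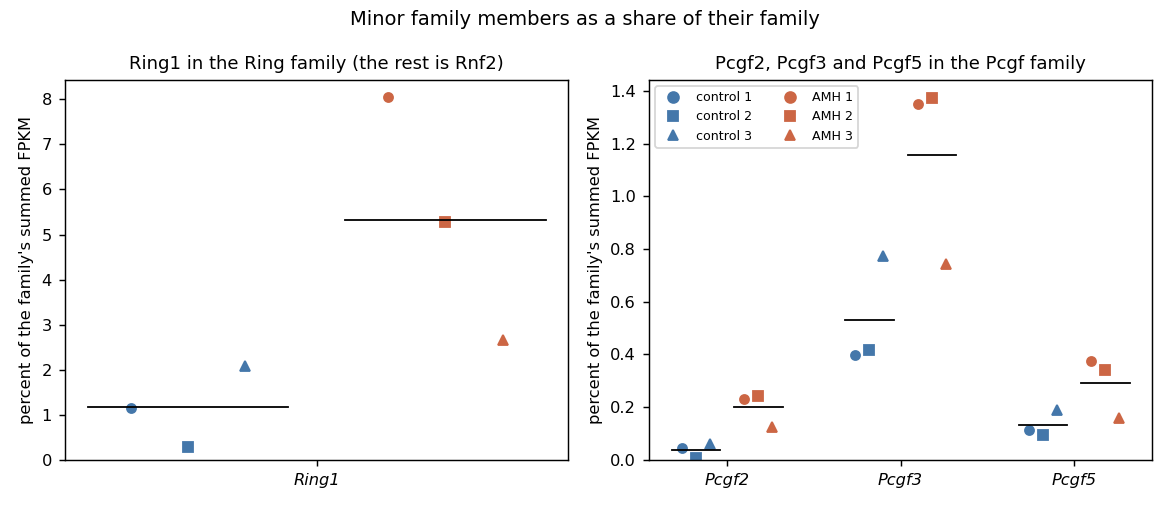
Shares of low-level paralogs in the summed FPKM of their family, with 1 point per library and a black bar at the group mean; the left panel shows Ring1 in the Ring family and the right panel Pcgf2, Pcgf3 and Pcgf5 in the PCGF family, on different vertical axes. Ring1 lies at 0.290% to 2.07% in controls and 2.66% to 8.05% in AMH libraries, and the shares of Ring1 and Pcgf2 do not overlap between groups while those of Pcgf3 and Pcgf5 do.

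The direction of the members depended on the scaling. The median log2 fold change of the 10 members was -0.61 under TMM, -0.35 under library size alone, -0.83 under upper-quartile factors and 0.095 when scaled to the oocyte marker list. The median of all tested genes moved along, with -0.01, 0.26, -0.23 and 0.73. Relative to it the members lay at -0.59, -0.61, -0.60 and -0.64, and Ring1 at 1.69, 1.70, 1.74 and 1.69. A scaling factor moves all genes of a library together, so these distances are nearly fixed by construction. Over other sets of genes the members lay at -0.84 (DESeq2) and -0.82 (edgeR with no filter) from the median. The number of members with every AMH library below every control was 8 with TMM, 3 with library size only (Ezh2, Rnf2 and Bmi1) and 0 with the oocyte marker scaling, settings added for this count after values were seen. Of all tested genes, 23.3%, 12.9% and 0.763% lay lower in this way under these scalings. Ring1 was higher without overlap under all 3, as were 26.9%, 33.1% and 39.2% of all tested genes. With deposited FPKM 8 members lay lower and 1 higher without overlap, against 23.2% and 27% of all tested genes.

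Set against the summed oocyte markers, Pcgf6 is named after its values were seen. It had 7030, 6541 and 6846 counts per 1000000 oocyte marker counts in controls 1 to 3 and 6599, 7073 and 6843 in AMH 1 to 3. Bmi1 had 15596 ± 1462 in control and 15386 ± 1290 in AMH libraries on this scale, and Eed 6016 ± 670.0 and 5937 ± 328 (SD, n = 3 each). Ezh1 had 5849 ± 726 and 8253 ± 1651, and Ring1 71.97 ± 60.01 and 387 ± 215.

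**Figure D4:**
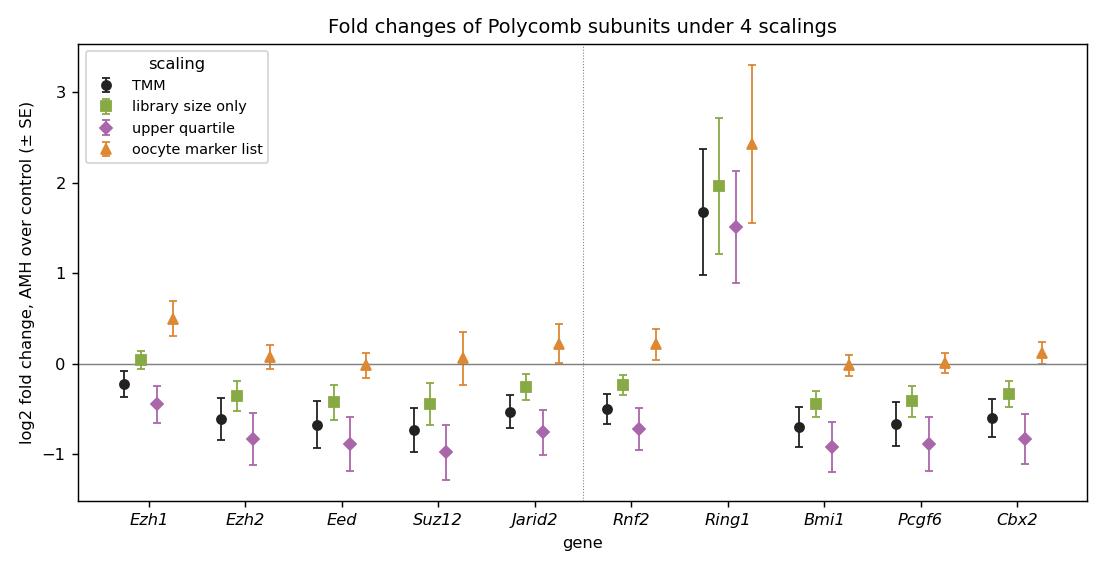
Fitted log2 fold change of each subunit, AMH over control, with bars of 1 standard error, under TMM, library size only, upper-quartile and oocyte marker scaling in edgeR. Ring1 is above 0 under all 4; the other members are below 0 with TMM, and 7 of them are above 0 with the oocyte marker scaling.

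Control 3 and AMH 3 bore on the calls. Without control 3 edgeR called 3 members, Suz12 and Cbx2 lower (adjusted p = 0.0180 and 0.0455) and Ring1 higher (0.0379), in a fit that called 11.2% of all tested genes lower and 26.8% higher. Without AMH 3 it called 5 lower, namely Ezh2, Eed, Rnf2, Bmi1 and Pcgf6 (adjusted p = 0.0400 to 0.0467), where 6.73% of all tested genes were called lower and 1.45% higher. Without both, 9 members were called, 8 lower and Ring1 higher, and Ezh1 was not, in a fit that called 21.6% of all tested genes lower and 29.4% higher. With these 2 libraries left out, all 10 members were free of overlap, 9 lower and 1 higher, as were 42.9% of all tested genes lower and 43.5% higher, since overlap is rarer with 2 libraries a group.

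Transcript level went with direction across Polycomb subunits, as it did across all genes. The 9 members with a mean of at least 50 CPM over the 6 libraries all had negative log2 fold changes under TMM, and so did all 21 other PRC1 and PRC2 subunits of that level, with medians of -0.61 and -0.61. Among all 3828 tested genes of that level 74.97% were negative, the median was -0.46, and 49.9% lay lower without overlap, as did 8 of the 9 members and 12 of the 21 other subunits. Of the 19 other subunits under 50 CPM, 12 were positive and 7 negative, with a median of 0.41, against 0.23 over the 15040 tested genes under that level. The 50 CPM level was chosen after values were seen.

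Signs of the lists below are those under TMM. With the oocyte marker scaling, which puts the median of all tested genes at 0.73, the medians of other PRC2, variant PRC1 and mark-removing genes turned to 0.15, 0.34 and 0.19, and with upper-quartile factors that of canonical PRC1 turned to -0.089. Most other PRC2 genes also had lower means in AMH libraries, 8 of 10. Of 10 in the tables all were tested, and edgeR called 0. At an unadjusted p under 0.05 there were 4 lower and 0 higher, against 17.3% of all tested genes lower and 20.2% higher. Their median log2 fold change was -0.56 against -0.01 for all tested genes. Without overlap 5 lay lower, as did 23.3% of all tested genes and 49.9% of those of at least 50 CPM. DESeq2 called 0, where it called 4.86% of its tested genes lower and 14.4% higher. Mtf2, which helps PRC2 onto CpG islands, had 125, 115 and 105 CPM in controls and 67.6, 76.9 and 89.8 CPM in AMH libraries, so every AMH library lay below every control. Phf1, its relative, had 658 to 856 CPM in controls and 395 to 649.8 CPM in AMH libraries. Lcor, whose locus also encodes a PRC2 partner, had 36.4 to 59.6 and 28.5 to 37.3 CPM, and overlapped. AU022751, the mouse EZHIP gene whose product restrains PRC2 in germ cells, is named for its level, seen in these data. It had 7490, 7541 and 6369 CPM in controls and 3739, 3630 and 6362 CPM in AMH libraries (edgeR adjusted p = 0.134). With 3106 FPKM in controls it lay far above every member, and AMH 3 all but met control 3.

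The other subunits of canonical PRC1 were split. All 10 were tested, 5 were negative and 5 positive with a median of 0.12, and edgeR called 0. At an unadjusted p under 0.05 there were 2 lower and 2 higher, against 17.3% of all tested genes lower and 20.2% higher. DESeq2 called Scml2 lower and Pcgf2 higher (adjusted p = 0.0300 and 0.0401), where it called 4.86% of its tested genes lower and 14.4% higher. Scml2, a germline PRC1 partner, had 241, 229.9 and 203 CPM in controls and 107, 112 and 165 CPM in AMH libraries (edgeR adjusted p = 0.116). Scmh1, a related protein, had 144 to 179 and 90.4 to 139.97 CPM. Pcgf2 had 0.822, 0.156 and 0.925 CPM in controls and 2.09, 2.32 and 1.80 CPM in AMH libraries, so it stayed low in all.

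Of 20 other variant PRC1 genes 15 were negative and 5 positive with a median of -0.39. edgeR called 0. At an unadjusted p under 0.05 there were 7 lower and 1 higher, against 17.3% of all tested genes lower and 20.2% higher. DESeq2 called Usp7 lower and Bcor higher (adjusted p = 0.0398 and 0.0395), where it called 4.86% of its tested genes lower and 14.4% higher. Usp7, a deubiquitinase found with PRC1, had 410.0, 442 and 386 CPM in controls and 178, 234 and 305 CPM in AMH libraries. L3mbtl2, of the PCGF6 complex, had 66.4 to 87.9 and 47.2 to 58.5 CPM. Bcor, the corepressor of the PCGF1 complex, had 10.7, 8.81 and 13.6 CPM in controls and 20.1, 20.3 and 16.3 CPM in AMH libraries. Its complex partner Kdm2b had the opposite sign, with 140.1, 180.3 and 103 CPM in controls and 76.4, 110.1 and 78.6 CPM in AMH libraries, and is named after its values were seen.

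Enzymes that remove Polycomb marks and cofactors of the BAP1 enzyme were also mostly lower in the mean. Of these 10 genes 9, all but Asxl2, were negative, with a median of -0.55, and edgeR called 0. At an unadjusted p under 0.05 there were 4 lower and 0 higher, against 17.3% of all tested genes lower and 20.2% higher. DESeq2 called Asxl1 lower (adjusted p = 0.0362), where it called 4.86% of its tested genes lower. Asxl1, cofactor of the BAP1 H2A deubiquitinase, had 163, 165 and 179.7 CPM in controls and 85.6, 56.5 and 119 CPM in AMH libraries. Kdm6a, a demethylase of lysine 27 of histone H3, had 497 to 580.5 and 255 to 398 CPM, and Mysm1, another H2A deubiquitinase, had 33.0 to 42.4 and 22.7 to 29.8 CPM. In these 3 genes the groups did not overlap.

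**Figure D5:**
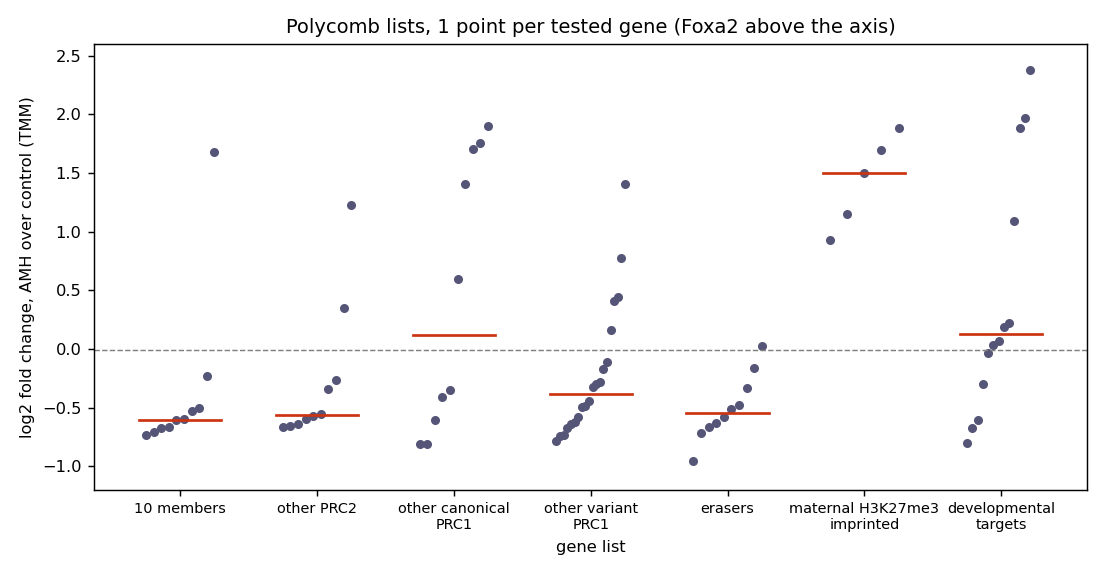
Log2 fold change, AMH over control under TMM scaling, of each tested gene in the Polycomb lists (points, sorted within a list), with the list median (red bar) and the median of all tested genes (dashed line). The list medians are -0.61, -0.56, 0.12, -0.39, -0.55, 1.4995 and 0.13 from left to right; Foxa2, at 0 in every control, is off the axis.

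Genes imprinted through maternal histone H3 methylation had higher means in AMH libraries. All 5 were positive, with a median of 1.4995, but edgeR called 0. In 4 every AMH library lay above every control, as in 26.9% of all tested genes and 30.6% of those under 50 CPM. At an unadjusted p under 0.05 there was 1 higher, against 20.2% of all tested genes. Gab1, an adaptor of receptor signalling, had 10.6, 7.56 and 17.6 CPM in controls and 30.8, 28.3 and 20.3 CPM in AMH libraries (edgeR adjusted p = 0.116, DESeq2 adjusted p = 0.0337). Jade1, part of a histone acetyltransferase complex, had 6.47, 1.95 and 22.1 CPM in controls and 42.6, 32.6 and 23.9 CPM in AMH libraries. Slc38a4, an amino acid transporter, had 0.0623 to 2.34 and 2.81 to 4.56 CPM, Sfmbt2, itself a Polycomb group protein, 0.358 to 1.38 and 1.503 to 2.09 CPM, and Smoc1, a matrix protein, 0.249 to 4.38 and 3.25 to 7.54 CPM. In all 5 genes control 3 was the highest control and control 2 the lowest. The summed cumulus, oviduct epithelium, macrophage and red blood cell marker CPM shared this order, and the endothelial sum had the reverse one. The cumulus sum of every AMH library (2428 to 2744 CPM) lay below that of control 3 (2805 CPM). Taken singly, 6 of the 18 cumulus markers lay above every control in every AMH library, as did 4 of the 5 genes, and 1 marker lay below. The part of these cells in the values was not tested. Without control 3 edgeR called 4 of the 5 higher, with a median of 2.85, where it called 26.8% of all tested genes higher. Without control 2 it called 0 of the 5, as it called 0 of all 19688 genes tested in that fit, and the median of the 5 was 0.97.

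Developmental regulators that Polycomb keeps silent in many tissues were mostly at low counts. Of 27 such genes 6 had no count in any library, 13 were not tested, and the 14 tested ones had a median of 0.13, with 5 negative and 9 positive. The sign of this median was not stable, with -0.067 under upper-quartile factors, -0.28 with sample quality weights, -0.033 without AMH 1, -0.010 in DESeq2 (21 genes), -0.032 with no filter (21 genes) and -0.57 at 5 CPM or more in 3 libraries (3 genes). edgeR called 0. At an unadjusted p under 0.05 there were 1 lower and 3 higher, against 17.3% of all tested genes lower and 20.2% higher. DESeq2 called 2 higher, Foxa2 and Cdkn2b (adjusted p = 8.83e-05 and 0.00197), where it called 14.4% of its tested genes higher. Foxa2, a transcription factor of endoderm and glands, had 0 counts in each control and 79, 27 and 16 counts in AMH 1 to 3, at least 34.0-fold higher CPM against a floor of 3 counts over the control group. The list median is 0.13 with Foxa2 at that bound as well. Cdkn2b, a cell cycle inhibitor, had 0.651, 0.436 and 0.910 CPM in controls and 5.83, 2.88 and 1.72 CPM in AMH libraries. AMH 1, 2 and 3 had the same order in these 2 genes as in summed oviduct epithelium marker CPM (547, 311 and 101). Summed red blood cell marker CPM shared this order (307, 26.5 and 20.1), while the cumulus and macrophage sums did not. The part of these cells was not tested. Hoxa7 was the only Hox gene of the list above 4 CPM, with 69.2, 65.99 and 46.3 CPM in controls and 35.7, 32.9 and 45.0 CPM in AMH libraries.

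Patterns most like those of the highest PRC2 and PRC1 members were sought among the 10161 protein-coding genes that averaged 5 CPM or more. Likeness was the root-mean-square difference of log2 CPM, centred per gene, over the 6 libraries. Closest to Ezh2 were Atxn2l (0.020), Cyp19a1 (0.027) and Atg12 (0.030), where the median over these genes was 0.46. Cyp19a1 is also the marker of the cumulus and granulosa list that lay lower in every AMH library. Closest to Bmi1 were Slc41a2 (0.019), Agtpbp1 (0.031) and Atl2 (0.034), with a median of 0.47. The smallest of so many distances over 6 libraries lie far below the median by selection, so the contrast is no measure of shared regulation.

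Overlapping genes could add few reads to the members. Trmt1l, on the opposite strand, shares 158 bases with Rnf2 and had 1943 to 2369 counts, against 12567 to 17110 for Rnf2. E230029C05Rik shares 261 bases with Eed on the opposite strand and had 12 to 23 counts. The other overlapping genes had at most 9 counts in a library.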

How the data were processed

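The deposited tables hold, for each gene and library, a whole-number count and an FPKM value made by the authors. Per the submitters' processing notes, the tools were DESeq2 1.20.0, featureCounts 1.5.0-p3 and HISAT2 2.0.5, on GRCm38 (mm10). Which tool did what, and the strand option, is not given in the sources used here. Dividing each count by its gene's length and by an effective library size (0.924 to 1.18 of the count total) gives the deposited FPKM. Per the labels' protocols, RNA was amplified with a SMART kit and taken with poly-T beads.

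Counts were tested with edgeR 4.0.16 in R 4.3.3 (quasi-likelihood, robust, TMM scaling, filterByExpr, group alone, Benjamini-Hochberg at 0.05 over 18868 genes), with standard errors from the F statistic. CPM uses the TMM-scaled library size. Every member passed the filter in each library. Alternatives were DESeq2 1.42.0 on all genes, limma 3.58.1, with or without voom, other filters, other scalings, left-out libraries and a replicate block. The fit was checked on simulated counts. For ratios of FPKM the groups were compared with an exact permutation test, two-sided. Coordinates are those of the files, on GRCm38.

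The members, gene lists and tests were chosen with earlier results of these data known. The rule for named genes took all members, then the 3 genes of smallest p in each other list (all 5 in the imprinted list), and the 3 nearest patterns to 2 members. AU022751, Kdm2b and the low-level paralogs lie outside it and were chosen after their values were seen.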

Additional observations from a re-analysis of the deposited data

How the results depend on the processing

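The members were called or not depending on the setting, and the cause was not tested. edgeR called 0 genes and 0 members; leaving out each library in turn gave 0 to 7513 genes and 0 to 5 members, with member medians of -0.76 to -0.47. Without control 3 and AMH 3 together it called 9885 genes and 9 members (median -0.88). DESeq2 called 3814 genes and 0 members, and limma-voom with sample quality weights 14130 genes and 10 members (median -0.79). Its weights were 6.58, 0.676 and 0.308 for controls 1 to 3 and 0.938, 3.11 and 0.2502 for AMH 1 to 3. Control 1 and AMH 2 thus weighed most in that fit.

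Scaling moved directions: the member median was -0.35 under library size alone, -0.83 under upper-quartile factors and reversed to 0.095 with the oocyte marker scaling. Under the latter Ezh1 (0.50), Ezh2 (0.072), Suz12 (0.061), Jarid2 (0.22), Rnf2 (0.21), Pcgf6 (0.0069) and Cbx2 (0.12) turned positive, and with library size only Ezh1 did (0.039). Members whose groups do not overlap numbered 9 with TMM and with deposited FPKM, 10 once control 3 and AMH 3 were left out, 4 under library size alone and 1 with the oocyte marker scaling. Of all tested genes, 23.3% lay lower and 26.9% higher in this way with TMM, 23.2% and 27% with FPKM, 42.9% and 43.5% with 2 libraries a group, where overlap is rarer by construction, 12.9% and 33.1% under library size alone, and 0.763% and 39.2% with the oocyte marker scaling. Of the member fold changes over the 18 alternatives (17 for Ring1), those of Eed, Bmi1 and Ring1 kept their sign in each. With the oocyte marker scaling, though, Eed (-0.019, SE 0.14) and Bmi1 (-0.020, SE 0.12) lay within their standard errors of no change. Ring1 went untested under the filter of 5 CPM or more in 3 libraries. It passed the filter of more than 1 FPKM in 3 libraries. The libraries above 1 FPKM were AMH 1, 2 and 3 (3.25, 2.47 and 1.34 FPKM) and control 3 (1.25 FPKM).

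Leaving out each library gave log2 ratio differences of -0.57 to -0.27 for Ezh2 to Ezh1, -3.13 to -1.70 for Rnf2 to Ring1, -0.35 to 0.19 for Eed to Suz12 and -0.016 to 0.078 for Pcgf6 to Bmi1. The same-numbered libraries did not deviate together (correlations of 0.060, -0.10 and -0.25 for numbers 1, 2 and 3), and none correlated best with its own number. With the replicate block edgeR called 0 genes and 0 members (median -0.63), and the paired ratio differences were -0.42, -0.037, -2.51 and 0.025 (exact sign-flip p = 0.25, 1, 0.25 and 0.75, where 0.25 is the smallest possible). Depth was not limiting for members other than Ring1, which had 39 counts in control 2.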
